A study of Mus musculus with 4 samples.

Results

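The cyclin and cyclin-dependent kinase genes of the mouse were examined for peaks of phosphorylated ATF2 in blood stem cells. Members were taken by symbol from the protein-coding genes of the RefSeq annotation of GRCm38.p6, the assembly that the build name mm10 stands for. A symbol qualified when it was Cdk followed by a digit, or Ccn followed by 1 letter and optional digits, which leaves out Ccn1 to Ccn6. This gave 51 of 21887 genes. They were sorted by known role into 15 cell-cycle genes, 16 transcriptional genes, 13 other cyclins and kinases, and 7 genes whose symbols begin with Cdk but whose products are partner proteins and not kinases. Cdk3 is a pseudogene in this annotation and was not a member.

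Cyclins are regulatory subunits that switch on cyclin-dependent kinases. One set of pairs drives the cell through division: D-type cyclins with Cdk4 and Cdk6 in G1, E-type cyclins with Cdk2 at the entry into S phase, and A- and B-type cyclins with Cdk2 and Cdk1 through S phase and mitosis. A second set acts on RNA polymerase II and its regulators and sets transcription and splicing instead. Blood stem cells are mostly quiescent, and entry into the cycle is tied to the D-type cyclin step. ATF2 is a leucine-zipper factor of the ATF/CREB family, which is known to bind the cAMP response element, TGACGTCA, and shorter forms of it.

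The cells were haematopoietic stem cells of wild-type C57BL/6J mice, taken from bone marrow and sorted as CD150+ CD48- cells of the LSK gate, which selects immature marrow cells. All 4 libraries came from such cells, with no treatment and no other genotype, and the age and number of mice were not given in the sources used here. CUT&Tag, in which an antibody brings a transposase to chromatin, was done with an antibody to ATF2 phosphorylated at T69/71 (2 libraries) or at S490/498 (2 libraries). The antibody field of the first 2 libraries reads T67/71, and the titles are followed here. No control library was analysed here, so signal that arises with any antibody was not measured. Nothing in the labels ties the 2 libraries of an antibody to separate animals, so their spread, and any p-value from it, may be technical.

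The peak lists held 12464 and 14716 peaks on the assembled chromosomes in replicates 1 and 2 of T69/71, and 7132 and 435 in those of S490/498. The last list is too short to inform on most genes. Its 1 marked member, Cdk19, was marked in the other 3 libraries too, so counts of members marked in at least 1 library or in none are the same without it. Among blood stem cell markers, 3 of 12 had a summit within 1 kb of an end in both T69/71 libraries (Hlf, Lyl1 and Runx1), while Kit and Tal1 had one in replicate 1 alone, and Meis1 in replicate 2 alone. Markers of B cells, T cells, erythroid cells, endothelial and stromal cells and neural cells had 0 of 4 each. The share of all protein-coding genes was 21.1%, so lists of this size do not tell the cell types apart. Ebf1 and Kdr each had a summit in replicate 2 of T69/71 alone, and Syn1 had one there and in replicate 1 of S490/498. These peaks do not measure RNA, so the sort itself could not be checked from them.

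A gene is called marked below when the summit of a peak, its highest point, lay within 1 kb of either end of the gene. The value given for a marked gene is the fold enrichment that the authors deposited for the strongest such peak by q-value, which is the signal at the summit relative to the local background of the same library. Folds of different libraries are set side by side as descriptions. At least 1 library marked 32 of the 51 genes (62.7%, against 35.4% of all protein-coding genes, the background share). In both T69/71 libraries 19 of the 51 genes were marked (37.3%), against a background of 21.1%. The transcriptional class had 8 of 16 (50%), the cell-cycle class 5 of 15 (33.3%), the other cyclins and kinases 5 of 13 (38.5%) and the partner proteins 1 of 7 (14.3%). In replicate 1 of S490/498 alone 19 of 51 genes were marked (37.3%), against a background of 17.9%.

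Promoters of 8 genes are shown because the results below turn on them: marked genes of both classes, 3 whose start lies inside the annotated gene, and Cdk10, which had no peak. RefSeq promoters were listed for 41 of the 51 genes, with a start site and strand. The 250 bases before the start site are given 5′ to 3′ in GRCm38.p6, as the RefSeq promoter table holds them. Capitals mark the word TGACG, the core of that element, on either strand (CGTCA on the strand shown).
Ccnl1, chr3:65958250-65958499, minus strand: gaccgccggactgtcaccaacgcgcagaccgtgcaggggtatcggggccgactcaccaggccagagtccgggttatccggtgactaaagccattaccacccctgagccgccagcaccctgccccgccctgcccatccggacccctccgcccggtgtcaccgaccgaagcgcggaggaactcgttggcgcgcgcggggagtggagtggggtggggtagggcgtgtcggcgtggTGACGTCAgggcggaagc
Ccnl2, chr4:155812239-155812488, plus strand: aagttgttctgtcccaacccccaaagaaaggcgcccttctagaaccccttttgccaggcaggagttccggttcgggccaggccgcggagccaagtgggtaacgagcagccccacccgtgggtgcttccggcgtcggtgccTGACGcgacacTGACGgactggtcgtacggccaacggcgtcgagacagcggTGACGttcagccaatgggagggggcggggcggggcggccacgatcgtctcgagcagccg
Cdk11b, chr4:155624604-155624853, plus strand: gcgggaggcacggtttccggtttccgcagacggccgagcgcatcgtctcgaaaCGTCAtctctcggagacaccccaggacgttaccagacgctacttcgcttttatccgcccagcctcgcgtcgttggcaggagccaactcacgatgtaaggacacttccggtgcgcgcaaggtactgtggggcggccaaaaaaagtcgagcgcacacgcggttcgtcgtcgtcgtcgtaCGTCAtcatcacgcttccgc
Ccnt1, chr15:98567737-98567986, minus strand: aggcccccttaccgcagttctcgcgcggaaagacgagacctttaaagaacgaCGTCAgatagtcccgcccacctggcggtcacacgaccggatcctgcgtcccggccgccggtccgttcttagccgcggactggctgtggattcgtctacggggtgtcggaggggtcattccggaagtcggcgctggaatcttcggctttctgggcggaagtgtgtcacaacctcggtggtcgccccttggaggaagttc
Cdk10, chr8:123224591-123224840, plus strand: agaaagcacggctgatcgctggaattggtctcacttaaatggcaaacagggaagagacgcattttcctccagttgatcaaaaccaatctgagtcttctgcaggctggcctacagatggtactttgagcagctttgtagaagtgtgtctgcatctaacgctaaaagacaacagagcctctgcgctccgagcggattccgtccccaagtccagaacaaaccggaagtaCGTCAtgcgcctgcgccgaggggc
Cdk4, chr10:127063285-127063534, plus strand: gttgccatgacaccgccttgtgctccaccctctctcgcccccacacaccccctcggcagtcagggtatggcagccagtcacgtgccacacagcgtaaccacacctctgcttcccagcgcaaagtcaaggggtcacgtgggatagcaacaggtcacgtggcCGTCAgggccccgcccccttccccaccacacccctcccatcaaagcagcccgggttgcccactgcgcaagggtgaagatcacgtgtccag
Ccne1, chr7:38107491-38107740, minus strand: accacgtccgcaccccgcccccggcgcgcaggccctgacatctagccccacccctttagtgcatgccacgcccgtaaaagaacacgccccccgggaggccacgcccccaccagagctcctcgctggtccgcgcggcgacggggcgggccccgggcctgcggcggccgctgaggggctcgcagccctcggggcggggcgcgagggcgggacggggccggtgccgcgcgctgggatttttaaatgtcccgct
Ccnd3, inner start, chr17:47593217-47593466, plus strand: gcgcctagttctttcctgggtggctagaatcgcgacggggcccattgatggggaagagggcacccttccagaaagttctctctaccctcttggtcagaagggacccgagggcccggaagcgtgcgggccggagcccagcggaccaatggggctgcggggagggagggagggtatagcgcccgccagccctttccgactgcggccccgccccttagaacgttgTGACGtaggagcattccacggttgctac
The first 5 belong to transcriptional genes and the last 3 to cell-cycle genes. All of the first 5 hold TGACGT, so they do not stand for the transcriptional class as a whole. The Ccnl1 promoter holds the full palindrome TGACGTCA, with its first base 18 bases before the start. The Cdk11b promoter holds TGACGT on the other strand at 2 places, and Ccnl2, Ccnt1, Cdk10 and the inner Ccnd3 promoter hold it once each. Cdk4 holds the 5-letter word only, and in the bases shown Ccne1 holds none.

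Over the whole 300-base windows, which run from 250 bases before the start to 50 after it, TGACGT on either strand was found in 6 of 14 transcriptional genes with a listed promoter (42.9%). It was found in 2 of 11 cell-cycle genes (18.2%) and in none of the other cyclins, kinases and partners with a listed promoter (0 of 10 and 0 of 6). Among all 17492 protein-coding genes with a listed promoter the share was 9.6%, and among all 21263 promoters of this length 8.49%. The shorter word TGACG, which every TGACGT contains, was in 9 of 14 transcriptional genes, 5 of 11 cell-cycle genes and 26.2% of all genes. Ccnk, Ccnt2, Cdk12 and Cdk13 held neither word in the listed promoter, although all were marked in the 3 larger libraries. Ccnt1 and Cdk11b, also marked there, held TGACGT, as did Ccnl1 and Ccnl2, which had start-site peaks there. Cdk19, marked there too, had no listed promoter. The word TGANTCA, which allows any base at N and so is broader than the AP-1 site, was in 0 of 14, 1 of 11 (Ccna1) and 8.12%.

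Genes with the word were marked more often across the genome. A summit within 1 kb of a listed start was present in both T69/71 libraries at 47.7% of the 1680 genes that held TGACGT and at 20.2% of the 15812 that did not. For the palindrome TGACGTCA, which contains TGACGT, the shares were 55.5% with and 22% without, for TGACG 40.7% and 16.5%, and for TGANTCA 14.2% with and 23.6% without. The word contains a CpG, and promoters rich in CpG were marked more often as well. By the gene-end rule, both T69/71 libraries marked 39.2% of genes with at least 20 CpG in a listed promoter and 11.3% of the rest. With a summit near an end or a listed start, the shares were 43.5% and 12.4%. The part of CpG content in the difference by word was not tested.

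The members' promoters were CpG-rich, with a median of 26.5 CpG per 300 bases against 13 for all protein-coding promoters. The medians were 31.5 for the transcriptional class and 25.5 for the cell-cycle class. Among genes with at least 20 CpG, 12 of 31 members were marked in both T69/71 libraries (38.7%), which is near the 39.2% of all such genes. The transcriptional class had 6 of 11 (54.5%) and the cell-cycle class 3 of 9 (33.3%) there. By the gene-end rule the share of members was thus near that of all genes with such promoters. When listed start sites were added to the ends, it was 17 of 31 (54.8%) against 43.5%, so this comparison depends on the rule.

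**Figure D1:**
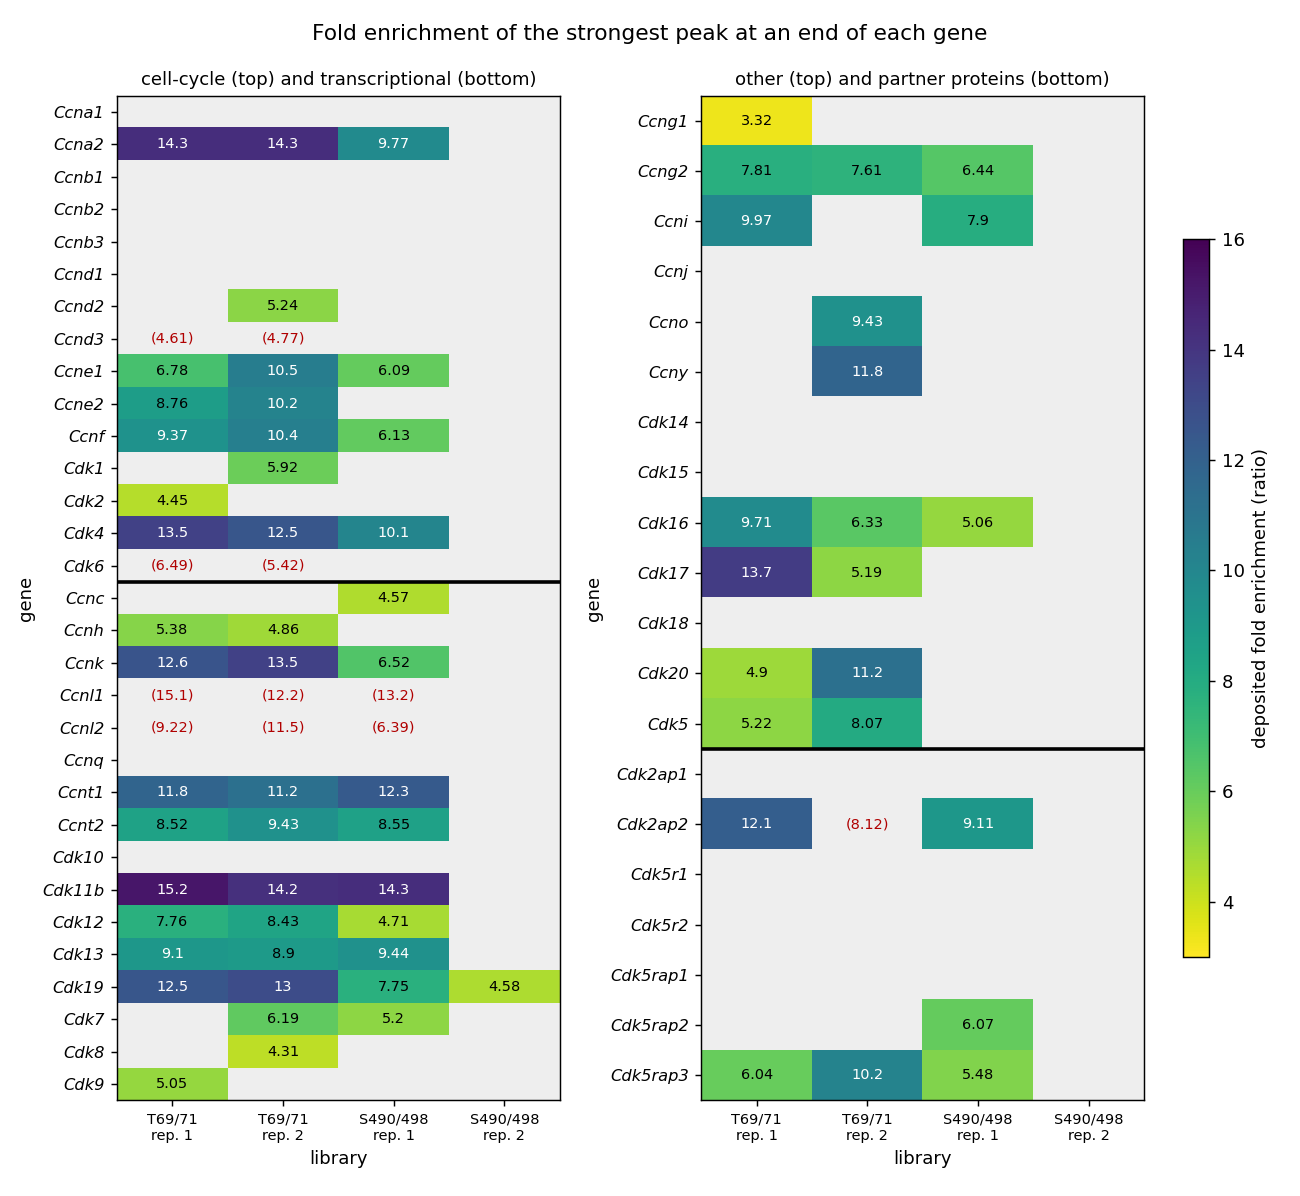
Deposited fold enrichment (colour and printed number, a ratio) of the strongest peak with its summit within 1 kb of an end, for all 51 genes (rows) in each of the 4 libraries (columns). Grey cells had no such peak, and red numbers in brackets are peaks within 1 kb of a listed start site that lies more than 1 kb from both ends, as at Ccnl1 and Ccnl2.

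Among the G1 genes, Cdk4, the kinase partner of D-type cyclins, was the one marked at a gene end in more than 1 library. Its fold was 13.5 in replicate 1 of T69/71, 12.5 in replicate 2 and 10.1 in replicate 1 of S490/498, with no peak in replicate 2 of S490/498. The summits lay 20, 127 and 159 bp upstream of the start site and rested on 41, 36 and 23 fragments. The peak of replicate 1 of T69/71 spanned chr10:127063251-127063761 and was stronger by q-value than 95.5% of the peaks in its list. Thus all 3 larger libraries placed a strong peak on the promoter shown above, and no other RefSeq gene ended within 1 kb of the summits.

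The D-type cyclins and Cdk6, which pair with each other and with Cdk4, had little signal at their gene ends. Ccnd1 had no peak in any library, either within the gene or within 3 kb of it. Ccnd2 had a fold of 5.24 in replicate 2 of T69/71 and no mark in the other 3 libraries. Ccnd3 and Cdk6 were marked in none of the 4 by the rule, but each had peaks at a listed start site that lies inside the annotated gene. At the inner start of Ccnd3 the fold was 4.61 and 4.77 in replicates 1 and 2 of T69/71, with summits 116 and 11 bp downstream of that start. At the start of Cdk6 it was 6.49 and 5.42, with summits 59 bp downstream and 238 bp upstream. These were weak peaks, of 13, 12, 10 and 8 fragments in that order, and neither S490/498 library had one at these starts.

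Both genes also had stronger peaks deep inside their bodies. In Ccnd3 a peak 6199 bp from the lower end had a fold of 11.9 in replicate 1 of T69/71, 7.86 in replicate 2 (6177 bp) and 6.96 in replicate 1 of S490/498 (6395 bp). A further Ccnd3 peak lay 16675, 16622 and 16634 bp from the same end, with folds of 5.64, 9.76 and 6.23. In Cdk6 a peak 50.9 kb from the upper end had folds of 8.37, 11.9 and 5.09 in the 3 larger libraries. These intragenic peaks recurred in the 3 larger libraries although the gene ends did not carry one.

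At the entry into S phase, both E-type cyclins were marked in both T69/71 libraries. Ccne1 had folds of 6.78 and 10.5 there and 6.09 in replicate 1 of S490/498, with summits 333, 192 and 190 bp upstream of the start. Ccne2 had 8.76 and 10.2, with summits 876 and 884 bp inside the lower end of the gene. In replicate 1 of S490/498 the Ccne2 peak (fold 6.48) had its summit at 1088 bp, just outside the 1 kb limit. The end of the noncoding RNA gene A630034I12Rik lies within 1 kb of the Ccne2 summits as well, so that peak cannot be assigned to either gene. Cdk2, the kinase of the E-type cyclins, had a weak peak of fold 4.45 and 5 fragments at its start in replicate 1 of T69/71 alone. A stronger peak lay 1589, 1487 and 1724 bp outside its other end in the 3 larger libraries, with folds of 11.5, 11.1 and 7.12. Rab5b and Pmel both end within 1 kb of those summits.

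Ccna2, the A-type cyclin of dividing body cells, had a fold of 14.3 with T69/71 in either replicate and 9.77 in replicate 1 of S490/498. The summits lay 852, 813 and 911 bp inside the upper end of the gene, and in the T69/71 libraries Bbs7 also ends within 1 kb of them. The peak of replicate 1 of T69/71 spanned chr3:36571921-36572351. Ccna1, the A-type cyclin known mainly from the germ line, had no peak. For mitosis, Ccnb1, Ccnb2 and Ccnb3 had no peak within the gene or within 3 kb of it in any library. Cdk1, the mitotic kinase, had a fold of 5.92 and 7 fragments in replicate 2 of T69/71 alone, 90 bp upstream of its start. Ccnf, a cyclin that serves as a substrate receptor of a ubiquitin ligase and activates no kinase, had 9.37, 10.4 and 6.13 in the 3 larger libraries, all within 81 bp of the start.

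The cell-cycle class was therefore split by gene. Of 15 genes, 4 were marked in the 3 larger libraries (Ccna2, Ccne1, Ccnf and Cdk4, 26.7%, against a background of 14.3%). At least 1 library marked 8 (53.3%, background 35.4%), and 7 were marked in no library. Those 7 were Ccna1, the 3 B-type cyclins, Ccnd1, Ccnd3 and Cdk6, and after inner start sites are counted 5 of them still lacked a peak. The replicate folds of the 5 genes marked in both T69/71 libraries differed by a factor of 1 to 1.55, the most at Ccne1.

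Of the 16 transcriptional genes, 7 were marked in at least 3 libraries, 5 in 1 or 2 and 4 in none. The 3 larger libraries together marked 43.8% of them (background 14.3%), and at least 1 library marked 75% (background 35.4%). Cyclin K with Cdk12 or Cdk13 phosphorylates the tail of RNA polymerase II during elongation, and all 3 genes were marked in the 3 larger libraries. Ccnk had folds of 12.6 and 13.5 in replicates 1 and 2 of T69/71 and 6.52 in replicate 1 of S490/498, in a peak that Setd3 also ends in or near. Cdk12 had 7.76, 8.43 and 4.71 in the same order, with summits 482 to 519 bp upstream of the listed start, where the noncoding gene Gm38963 also ends. Cdk13 had 9.1, 8.9 and 9.44, with summits 308 to 338 bp upstream and no other gene end within 1 kb.

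P-TEFb releases paused polymerase and consists of Cdk9 with cyclin T1 or T2. Both cyclins were marked in the 3 larger libraries. Ccnt1 had folds of 11.8 and 11.2 with T69/71 and 12.3 in replicate 1 of S490/498, and its summits lay 128, 133 and 133 bp upstream of the start, the closest agreement in position between the T69/71 libraries among the 19 genes. Ccnt2 had 8.52, 9.43 and 8.55. A noncoding gene ends within 1 kb of the summits at Ccnt1 (9330020H09Rik) and at Ccnt2 (2900009J06Rik). Cdk9 itself was marked in replicate 1 of T69/71 alone (fold 5.05, 684 bp upstream). Gm33457, Mir2861 and Mir3960, none of them protein-coding, also end within 1 kb of that summit. Cdk9 had a stronger peak further out. That peak lay 2377, 2342 and 2431 bp upstream of its start in the 3 larger libraries, with folds of 11, 9.73 and 9.65.

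The kinase module of Mediator holds cyclin C with Cdk8 or its paralogue Cdk19. Cdk19 was the one member marked in all 4 libraries, as were 0.164% of all genes. Its folds were 12.5 and 13 with T69/71 and 7.75 and 4.58 with S490/498, replicate 1 first each time. It was thus also the 1 member marked by both S490/498 lists (background 0.178%), and without replicate 2 of S490/498 it was marked in the other 3. The summits lay 378, 72, 340 and 221 bp outside the lower end of the gene. Cdk8 had a fold of 4.31 at its start in replicate 2 of T69/71 alone, and Ccnc 4.57 in replicate 1 of S490/498 alone, each from 4 fragments.

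Cdk8 also held the strongest peak found inside any member. It began at the same base, position 146260979 of chromosome 5, in all 4 lists and was 403 to 423 bp wide. Its folds were 24.3 and 29.5 with T69/71 and 22.9 and 16.1 with S490/498, and by q-value it ranked 60 and 25 in the T69/71 lists and 54 and 53 in the S490/498 lists. The summit lay about 30 kb inside the gene, at 30343, 30373, 30375 and 30360 bp from the lower end, and no other gene of the annotation lies there. Whether it arises with any antibody was not tested.

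Cdk7 with cyclin H is part of the general factor TFIIH and also activates the cell-cycle kinases. Ccnh had weak peaks of fold 5.38 and 4.86 in the T69/71 libraries, from 6 and 5 fragments. Cdk7 had 6.19 in replicate 2 of T69/71 and 5.2 in replicate 1 of S490/498, both with the summit 10 bp upstream of the start. Cdk11b, a kinase of transcription and splicing that pairs with the L-type cyclins, had the highest fold of any marked member in replicate 1 of either antibody. It had 15.2 and 14.2 with T69/71 and 14.3 in replicate 1 of S490/498. Its summits lay 77, 175 and 172 bp upstream of the start, and the noncoding gene Gm16023 also ends there. The peak of replicate 1 of T69/71, chr4:155624378-155624991, covers both places where TGACGT stands in the sequence shown.

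The L-type cyclins showed how the rule depends on the annotation. Ccnl1 and Ccnl2 counted as unmarked in all 4 libraries, because their annotated ends lie more than 2 kb from the start sites of the promoter table. At the listed start, Ccnl1 had folds of 15.1 and 12.2 in replicates 1 and 2 of T69/71 and 13.2 in replicate 1 of S490/498. The summits lay 44, 43 and 38 bp upstream, beside the palindrome shown above, and rested on 68, 32 and 42 fragments. Ccnl2 had 9.22, 11.5 and 6.39, with summits 183, 92 and 136 bp upstream. Both genes thus had a start-site peak in the 3 larger libraries. Ccnq and Cdk10, which pair with each other, had no peak within the gene or within 3 kb of it, although the Cdk10 promoter also holds TGACGT.

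Start sites were therefore added to the ends for all genes. With a summit within 1 kb of an end or of a listed start, 24 of 51 members were marked in both T69/71 libraries (47.1%, background 22.9%). The transcriptional class then had 10 of 16 (62.5%) and the cell-cycle class 7 of 15 (46.7%). In the 3 larger libraries together the counts were 9 of 16 and 4 of 15 (background 15.5%). Single libraries marked 54.9% and 58.8% of members with T69/71 (backgrounds 29.8% and 30.2%), and 41.2% and 1.96% with S490/498 (19.3% and 0.228%). Among genes with at least 20 CpG in a listed promoter, 8 of 11 transcriptional and 5 of 9 cell-cycle genes were marked in both T69/71 libraries, against 43.5% of all such genes. This rule was chosen after the positions had been seen.

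**Figure D2:**
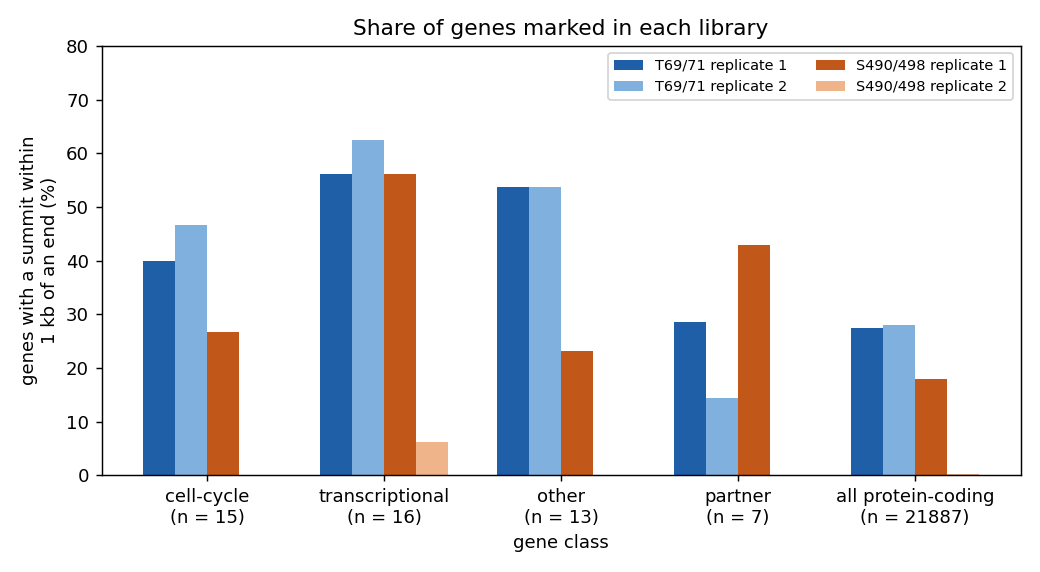
Share of genes (vertical axis, %) with a summit within 1 kb of an end in each library (bar colours), for the 4 classes and for all 21887 protein-coding genes. The transcriptional bars stand above the cell-cycle bars in all 4 libraries, and replicate 2 of S490/498 marks almost no gene.

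Set side by side over the libraries, the transcriptional class had the higher share each time. The shares were 40% of cell-cycle and 56.2% of transcriptional genes in replicate 1 of T69/71 (background 27.5%), and 46.7% and 62.5% in replicate 2 (background 27.9%). For S490/498 they were 26.7% and 56.2% in replicate 1, then 0% and 6.25% in replicate 2 (1 gene, background 0.224%). For genes marked in both T69/71 libraries the cell-cycle share was lower by 16.7 percentage points (5 of 15 against 8 of 16). The classes are small and genes are not replicates, so this difference has no test, and a single gene moves a share by more than 6 points.

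The strength of the marked peaks did not separate the classes in the same way. The median fold in replicate 1 of T69/71 was 9.07 over 6 cell-cycle genes and 9.1 over 9 transcriptional genes, against 7.2 over all 6019 marked genes. In replicate 2 it was 10.4 over 7 and 9.16 over 10, against 7.64 over 6103. With S490/498, replicate 1 gave 7.95 over 4 and 7.75 over 9, against 6.91 over 3917. The class medians were thus nearly equal in replicate 1 of either antibody, and the cell-cycle median was the higher in replicate 2 of T69/71.

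**Figure D3:**
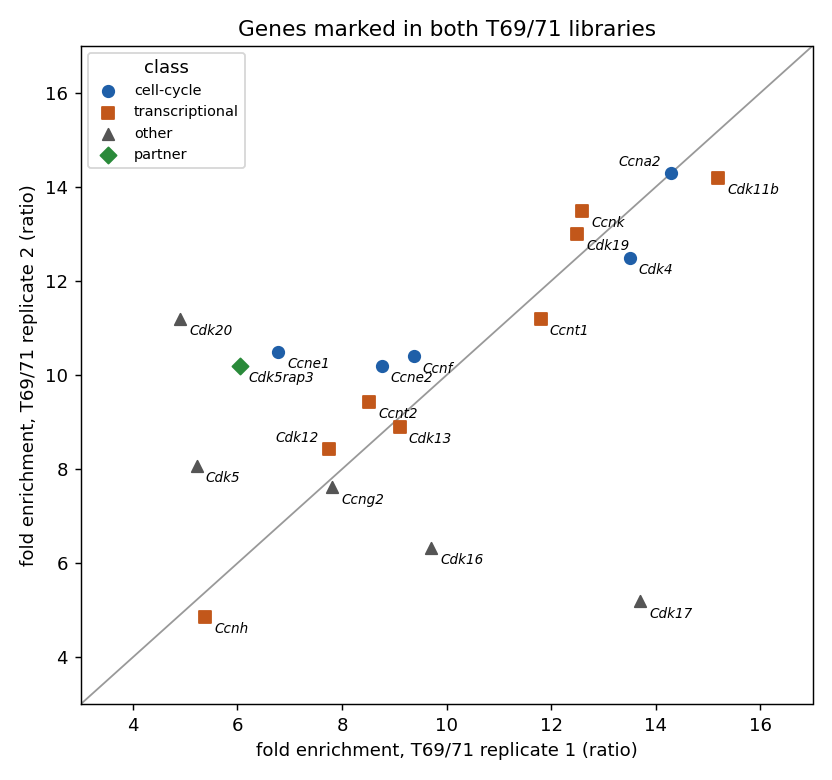
Deposited fold enrichment in replicate 1 (horizontal) and replicate 2 (vertical) of T69/71 for the 19 genes marked in both, with the line of equal values. The 8 transcriptional genes lie near the line, with ratios of at most 1.11, whereas Cdk17 and Cdk20 lie far from it.

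The 8 transcriptional genes marked in both T69/71 libraries had like folds there. Cdk7 and Cdk8 were marked in replicate 2 alone of T69/71 and Cdk9 in replicate 1 alone, so they have no such ratio. The larger fold exceeded the smaller by a factor of 1.02 to 1.11 over the 8 transcriptional genes (median 1.07). Over the 5 cell-cycle genes it did so by 1 to 1.55 (median 1.11), and over the 5 other cyclins and kinases by 1.03 to 2.64 (median 1.55). These ratios were not set beside those of all marked genes. Cdk17, a kinase of the PCTAIRE family, had 13.7 in replicate 1 and 5.19 in replicate 2, and Cdk20, whose peak also lies near the end of the noncoding gene 1700015C15Rik, had 4.9 and 11.2. Cdk16, of the same family as Cdk17, had 9.71, 6.33 and, in replicate 1 of S490/498, 5.06. Cdk5, which acts mainly in neurons with its activators Cdk5r1 and Cdk5r2, had 5.22 and 8.07, in a peak near the end of Slc4a2, while both activator genes had no peak within 3 kb.

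Ccng2, a cyclin linked to cell-cycle arrest, was the other cyclin marked in the 3 larger libraries, with strongest peaks of 7.81, 7.61 and 6.44. It had 2 peaks in each of these libraries, 439 to 513 bp upstream and 709 to 762 bp downstream of the start. The upstream peak was the stronger by q-value in replicate 1 of both antibodies and the downstream peak in replicate 2 of T69/71, so the strongest T69/71 summits lie 1258 bp apart. Ccng1, a p53 target, had only a peak of 3 fragments in replicate 1 of T69/71 (fold 3.32). Ccni had 9.97 in replicate 1 of T69/71 and 7.9 in replicate 1 of S490/498, near the end of 2010109A12Rik. Ccno (9.43) and Ccny (11.8) were marked in replicate 2 of T69/71 alone.

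Cdk14, Cdk15, Cdk18 and Ccnj had no mark at an end. Cdk14 held a peak 110 kb inside its lower end with folds of 18.3 and 11.6 with T69/71 and none with S490/498. Cdk15 and Cdk18 each had 1 intragenic peak in a single library, and Ccnj had none. Among the partner proteins, Cdk5rap3 was marked in the 3 larger libraries with 6.04, 10.2 and 5.48. Cdk2ap2, an inhibitor of Cdk2, had 12.1 in replicate 1 of T69/71 and 9.11 in replicate 1 of S490/498. In replicate 2 of T69/71 its peak of fold 8.12 missed the limit with a summit 1002 bp from the end, but lay 143 bp upstream of the listed start. Cdk5rap2 was marked in replicate 1 of S490/498 alone (6.07), and Cdk2ap1 and Cdk5rap1 were not marked.

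**Figure D4:**
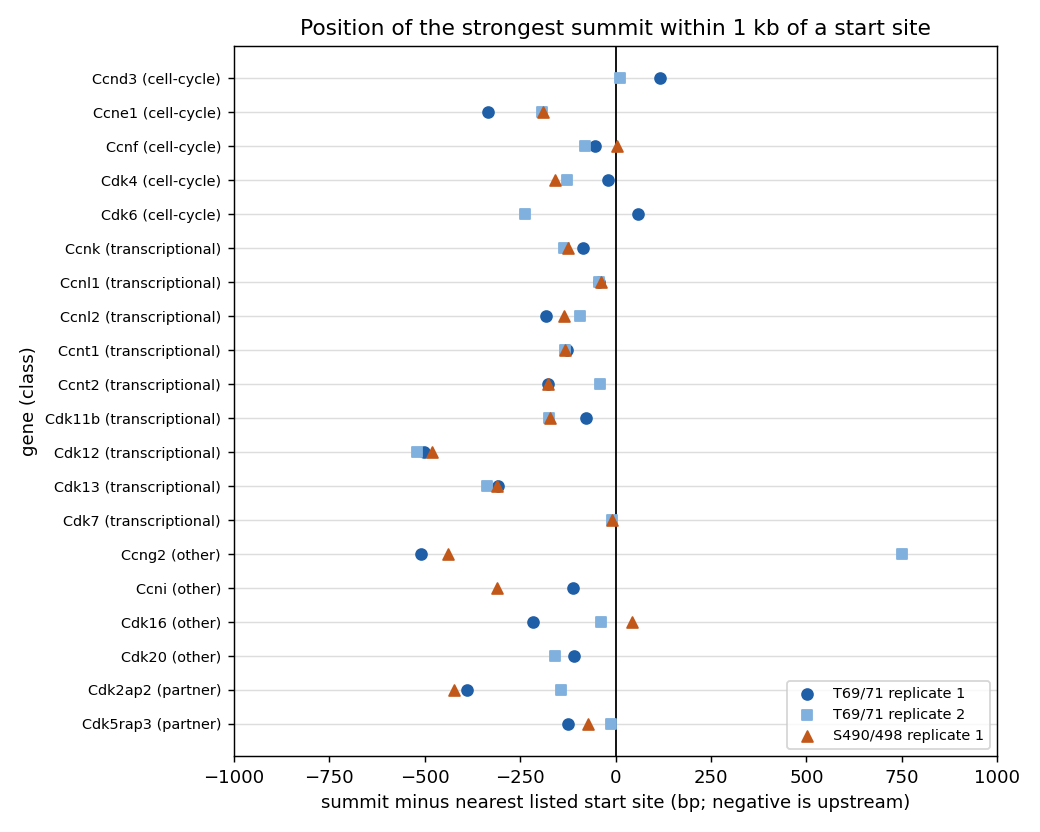
Distance in bp from the nearest listed start site to the strongest summit within 1 kb of it (horizontal axis, negative is upstream), for genes with such a summit in at least 2 of the 3 larger libraries. Most points lie upstream, and the points of a gene mostly lie close together.

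Where a strand was listed, the marks lay at gene starts and mostly just upstream of them. In replicate 1 of T69/71 all 18 marked members with a listed start had the summit within 1 kb of it, with 16 upstream and a median distance of 153 bp. In replicate 2 this held for 17 of 17, with 16 upstream and a median of 133 bp, and in replicate 1 of S490/498 for 17 of 17, with 14 upstream and 172 bp. Between the T69/71 libraries the summits of the 19 genes marked in both lay a median of 76 bp apart, and 12 lay within 100 bp. At Ccnt1 they were 5 bp apart. These distances were not set beside those of all marked genes, so they are not shown to be particular to the members.

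Peaks shared with another gene were common. Of the 19 genes, 9 had another annotated gene end within 1 kb of the summit in replicate 1 of T69/71 (47.4%), against 46% of all 4618 genes marked in both T69/71 libraries. In the transcriptional class these were 5 of 8 and in the cell-cycle class 2 of 5. The other gene was protein-coding in 3 of the 19 (15.8%, against 34.7% of all marked genes), which were Bbs7 at Ccna2, Setd3 at Ccnk and Slc4a2 at Cdk5.

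Most members marked in both T69/71 libraries were also marked in replicate 1 of S490/498, at a share near that of all genes. Of the 19 members marked in both T69/71 libraries, 14 were also marked in replicate 1 of S490/498 (73.7%), against 67.5% of all such genes. These were 7 of 8 transcriptional genes (all but Ccnh), 4 of 5 cell-cycle genes (all but Ccne2), 2 of 5 others and Cdk5rap3. Members marked in replicate 1 of S490/498 and in neither T69/71 library were Ccnc (fold 4.57, 4 fragments) and Cdk5rap2 (fold 6.07, 7 fragments). The median fold of that list was 6.05. How many of all genes had this pattern was not set beside it. The share of members marked was 47.1% and 49% in the T69/71 libraries and 37.3% and 1.96% in those of S490/498. Of all protein-coding genes, the same lists marked 27.5% and 27.9% with T69/71, and 17.9% and 0.224% with S490/498. For members, the mean difference of 28.4 percentage points gave an exact two-sided permutation p of 0.333, the smallest that 2 libraries against 2 allow. Without replicate 2 of S490/498 the difference was 10.8 points, and without replicate 1 it was 46.1. The same difference over all genes was not computed, so the gap is not shown to be particular to the members. With the strongest 7132 peaks of each T69/71 list, 37.3% and 35.3% of members were marked (backgrounds 20% and 17.5%). In replicate 1 of S490/498 it was 37.3% (background 17.9%). The mean difference, which still includes replicate 2 of S490/498, was then 16.7 points, with an exact two-sided permutation p of 1.

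The regulators of these kinases were marked too. Both lists of regulators and partners below are set beside all genes, and not beside genes of like promoter CpG content. Of 20 inhibitors, phosphatases and other regulators of the cell-cycle kinases, 10 were marked in both T69/71 libraries, against the background of 21.1%. They were led by Fzr1, an activator of the anaphase-promoting complex that destroys mitotic cyclins (14.9 and 15.5), and Cks2, a kinase-binding subunit (13.5 and 14.6). Fbxw7, which targets cyclin E for degradation, had 9 and 13.9, the inhibitory kinase Wee1 9.25 and 11, and the phosphatase Cdc25c 7.32 and 11.7. Among the inhibitor genes, Cdkn1b, which encodes p27, had 9.09, 7.5 and 5.84 in the 3 larger libraries, and Cdkn2d had 6.56, 8.03 and 7.43. Cdkn2c had 9.07 in replicate 1 of T69/71 and 5.09 in replicate 1 of S490/498, and Cdkn3 had 8.6 in replicate 2 of T69/71 and 5.05 in replicate 1 of S490/498. Cdkn1a, Cdkn1c, Cdkn2a and Cdkn2b were marked in none.

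Of 21 partners of the transcriptional kinases, 13 were marked in both T69/71 libraries (background 21.1%). Of these 13, 9 were also marked in replicate 1 of S490/498, near the 67.5% of all genes marked in both T69/71 libraries. The largest mean folds were at Larp7 (16.1 and 13.9), Ell2 (15.2 and 13.3), Mepce (11.5 and 16), Nelfe (12.8 and 9.43) and Ell (10.5 and 10.9). Larp7 and Mepce belong to the 7SK particle that holds P-TEFb inactive, Ell and Ell2 to elongation complexes, and Nelfe to the factor that pauses polymerase. Hexim1, the inhibitor of P-TEFb in the same particle, had 12.4, 8.19 and 13.5 in the 3 larger libraries. Other gene ends lie within 1 kb of the summits at Larp7 (Zgrf1), Mepce (Zcwpw1), Nelfe (Skiv2l), Ell2 (1700037F03Rik), Ell (Gm51534) and Fbxw7 (Gm35486).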

How the data were processed

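Per the submitters' processing notes, FastQC 0.11.5, Bowtie2 2.2.9, MACS2 and ChIPseeker were used with the build mm10; peak calling settings, duplicate removal and any control were not stated: not given in the sources used here. The authors deposited 1 peak list per library. The deposited fold enrichment (a ratio), −log10 p and −log10 q values, the score (10 times −log10 q as a whole number, within 1, in all 4 deposited lists) and the summit offset refer to the summit. Depth is not given. The fragments at a summit were recovered from the deposited fold and −log10 p as the whole number that satisfies the MACS2 formulas for both, with the largest gap in −log10 p over member peaks at 1.42e-04.

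Peaks on chromosomes 1 to 19, X and Y were used, with RefSeq genes and promoters of GRCm38.p6. Summits were compared with gene ends in Python 3.11.15 with pandas 2.3.3, tested on simulated data. Libraries were grouped by antibody from their titles. Members, classes and lists were chosen with earlier results of these data known. Values are given for all genes of the cell-cycle and transcriptional classes, for others marked in both T69/71 libraries or in 3 libraries, and for up to 5 regulators a list; Hexim1 and the Cdkn genes, the intragenic and outer peaks, the unmarked others and the promoters printed were chosen after their values were seen. Classes were compared by counts beside the share of all genes, with no test over genes. The share of members marked was compared between antibodies by an exact permutation test. Windows of 0.5 and 2 kb, −log10 q of at least 5 and 10, other class assignments and leaving out libraries were tried as alternatives.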

Additional observations from a re-analysis of the deposited data

How the results depend on the processing

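The sign of the difference between the cell-cycle and transcriptional shares in both T69/71 libraries (-16.7 percentage points) stayed negative under every alternative run, but its size moved. It was -30 with a 0.5 kb window, -10 with 2 kb, -10.4 with −log10 q of at least 5 and -10.8 with at least 10. It was -15.8 to -16.2 with either T69/71 library left out, -14.7 with Cdk7 and Ccnh counted as cell-cycle genes and -23.8 without Ccna1, Ccnb3, Ccnf, Cdk10 and Ccnq. With 2 alternatives chosen after seeing the data it was -15.8 (listed start sites added) and -10.4 (the strongest 7132 peaks of each list). The 5 cell-cycle genes marked became 3 with a 0.5 kb window, since the Ccna2 and Ccne2 summits lie 813 to 884 bp from an end. With −log10 q of at least 10, the members marked in both T69/71 libraries numbered 11 in place of 19, and those in replicate 1 of S490/498 6 in place of 19. The share of all genes marked at that minimum was not set beside these counts. The 1 member marked in both S490/498 libraries, Cdk19, gave a count of 0 at either −log10 q minimum (5 and 10). That count was 1 to 19 when either S490/498 library was left out, since replicate 2 marks 1 member. With the libraries paired by replicate number (the replicate block), the antibody difference was 28.4 points with an exact sign-flip p of 0.5, the smallest that 2 pairs allow; same-numbered libraries share only a number. The causes of these shifts were otherwise not tested. Many marks rest on few fragments, with medians of 16.5, 16, 12 and 11 per member peak in the 4 libraries, so a gene without a peak may lie under the detection limit.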
